A study of Mus musculus with 4 samples.

Results

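The microRNAs (miRNAs) of the miR-125 family and of the related miR-99 and miR-100 were followed in developing mouse molars from embryonic day 11 (E11) over E12 and E14 to E16. Its members were all array features named miR-125a, miR-125b, miR-99a, miR-99b or miR-100, for either arm of the precursor hairpin. There were 9 such features among 696 miRNA features. Of these, 6 were detected, each at all 4 stages: mmu-miR-125a-5p, mmu-miR-125b-5p, mmu-miR-99a, mmu-miR-99b, mmu-miR-100 and mmu-miR-125a-3p, where mmu stands for mouse and is left out below. The other 3, miR-125b*, miR-125b-3p and miR-99b*, belong to minor arms and were detected at no stage. A minor arm of miR-99a or miR-100 was not analysed here.

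All samples were mandibular molar tooth germs of untreated embryos of the outbred ICR mouse strain. By their labels the groups differed only in age: E11, E12, E14 or E16. Each stage was also a separate array, so age and array cannot be told apart. For each stage, 100 ng of total RNA was labelled with Cy3 and hybridised to 1 Agilent miRNA array. The sources used here do not say how many embryos or litters went into an array. With 1 array per stage no difference between stages could be tested, and every error printed with ± is the measurement error of the arrays, which holds nothing of the variation between animals.

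A miRNA guides an Argonaute protein to messenger RNAs that pair with its seed, the bases near its 5′ end. miR-125 is the vertebrate counterpart of lin-4, which with let-7 sets the timing of larval development in Caenorhabditis elegans. In mammals both miR-125 and let-7 repress Lin28, and Lin28 proteins in turn block the maturation of let-7 precursors. miR-99 and miR-100 repress mTOR, a kinase that controls growth, in human cells. The mouse genes lie in clusters that each hold a miR-99 or miR-100 gene, then a let-7 gene, then a miR-125 gene, and each cluster is thought to be transcribed together. Lin28 and mTOR were not measured here.

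The mature sequences are shown because the family falls into seed groups, and because some members differ by so few bases that their probes may hybridise to each other's targets. They were taken from RefSeq (build GRCm38.p6) for all 6 detected members, for the let-7 miRNAs of the same clusters and for miR-351, which shares the miR-125 seed. Capitals mark the seed, bases 2 to 8 from the 5′ end.
miR-125a-5p: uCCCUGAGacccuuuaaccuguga
miR-125b-5p: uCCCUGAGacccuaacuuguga
miR-351: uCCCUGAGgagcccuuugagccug
miR-99a: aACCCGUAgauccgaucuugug
miR-100: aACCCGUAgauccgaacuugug
miR-99b: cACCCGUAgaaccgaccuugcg
let-7a: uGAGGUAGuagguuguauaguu
let-7c: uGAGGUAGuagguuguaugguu
let-7e: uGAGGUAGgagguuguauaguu
miR-125a-3p: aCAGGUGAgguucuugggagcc

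The 6 detected members thus carry 3 seeds. In the RefSeq table the seed ACCCGUA belonged to miR-99a, miR-99b and miR-100 alone. CCCUGAG belonged to 5 mature miRNAs, which are miR-125a-5p, miR-125b-5p, miR-351 and the entries miR-6367 and miR-6394. The 3p arm of miR-125a has a seed of its own, CAGGUGA, which no other entry of the table has. With positions counted from 1 at the 5′ end of miR-99a, miR-100 differs from it by the single substitution U16A, and miR-99b by A1C, U11A, U16C and U21C. The cluster partners are as close: counted from the 5′ end of let-7a, let-7c differs by A19G and let-7e by U9G. miR-125a-5p, with 24 bases, and miR-125b-5p, with 22, are the same over their first 13 bases.

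The members come from 3 loci on the plus strand of GRCm38.p6. On chromosome 17 lie Mir99b, Mirlet7e and Mir125a, within the gene Spaca6. Mature miR-99b is at chr17:17830194-17830215, let-7e at chr17:17830366-17830387, miR-125a-5p at chr17:17830817-17830840 and miR-125a-3p at chr17:17830855-17830876. On chromosome 16 lie Mir99a, Mirlet7c-1 and Mir125b-2, with miR-99a at chr16:77598940-77598961, let-7c at chr16:77599672-77599693 and miR-125b-5p at chr16:77646279-77646300. On chromosome 9 lie Mir100, Mirlet7a-2 and Mir125b-1, within the long noncoding RNA gene Mir100hg, with miR-100 at chr9:41531437-41531458 and miR-125b-5p at chr9:41581940-41581961. The first and last of the mature 5p sequences start 623 bases apart on chromosome 17, 47339 on chromosome 16 and 50503 on chromosome 9. Mature miR-125b-5p is the same from both of its genes, so its signal cannot be divided between chromosomes 9 and 16. let-7c also has a gene on chromosome 15, and let-7a one on chromosome 13. The chromosome 17 miRNAs have no further gene in the table.

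The arrays detected 209 miRNAs at E11, 221 at E12, 249 at E14 and 250 at E16, and 197 at every stage. The deposited signals were brighter at later stages, with a 75th percentile over those 197 that was 1.44 higher at E16 than at E11 on the log2 scale. Scaled values below are therefore log2 signals minus that percentile of the same array. The choice of scaling moves every difference between stages, so 6 scalings were compared. They were this one, the percentile over all probes, the median, quantile normalization, no scaling, and the authors' own value table. The E16 minus E11 difference of each detected member is given with its range over these. Differences printed without a range, such as most single steps, move with the scaling too. Signals of different probes were not set against each other, since probes differ in affinity. The exception is the sums over marker miRNAs below. The measurement error was 7.4% to 9.0% of the signal for 5 of the members, and 10.9% to 32.0% for the dim miR-125a-3p.

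Set against E11, the E16 levels of the members differed, both between loci and within them. miR-99b and miR-125a-5p, both from chromosome 17, were lower by 1.86 ± 0.15 and 1.46 ± 0.15 on the scaled log2 scale, which is 3.64-fold and 2.75-fold. miR-99a from chromosome 16 and miR-100 from chromosome 9 lay on the other side of 0, at 0.79 ± 0.16 and 0.40 ± 0.18. On this scale the median of all miRNAs was -0.74, so 0 does not stand for no change. miR-125b-5p, which both of those loci encode, was at -0.86 ± 0.17. It lay below its neighbours miR-99a by 1.64 ± 0.23 (0.70 to 1.64 over the scalings) and miR-100 by 1.25 ± 0.24 (0.017 to 1.25). From miR-125a-5p, of another locus, it was apart by 0.60 ± 0.23 (0.60 to 1.88). In each cluster the let-7 miRNA lay above both of its neighbours.

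As a count, 3 of the 6 detected members were at least 2-fold lower at E16 than at E11, beside 37.6% of the 205 miRNAs detected at both stages, and 0 of 6 were at least 2-fold higher, beside 13.7%. The 3 were miR-99b, miR-125a-5p and miR-125a-3p. The last was dim, and its deposited signals of 7.68 ± 1.87 at E11 and 8.50 ± 2.24 at E16 were within their errors of each other. Its difference was -1.29 ± 0.52, and -2.16 to 0.14 over the scalings. The share of 3 of 6 is near the background, and the members' median of -1.07 lay beside a median of -0.74 over all 205 miRNAs, so neither is a result about the family as a whole. The count also rests on the scaling: on the deposited signals 0 members were 2-fold lower and 2 were 2-fold higher, and with median scaling 1 was lower and 1 higher. The order of the members among all miRNAs does not move with a constant shift. Counted from the lowest difference of the 205, miR-99b ranked 22, miR-125a-5p 38, miR-125a-3p 53 and miR-125b-5p 91. Counted from the highest, miR-99a ranked 35 and miR-100 ranked 48.

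**Figure D1:**
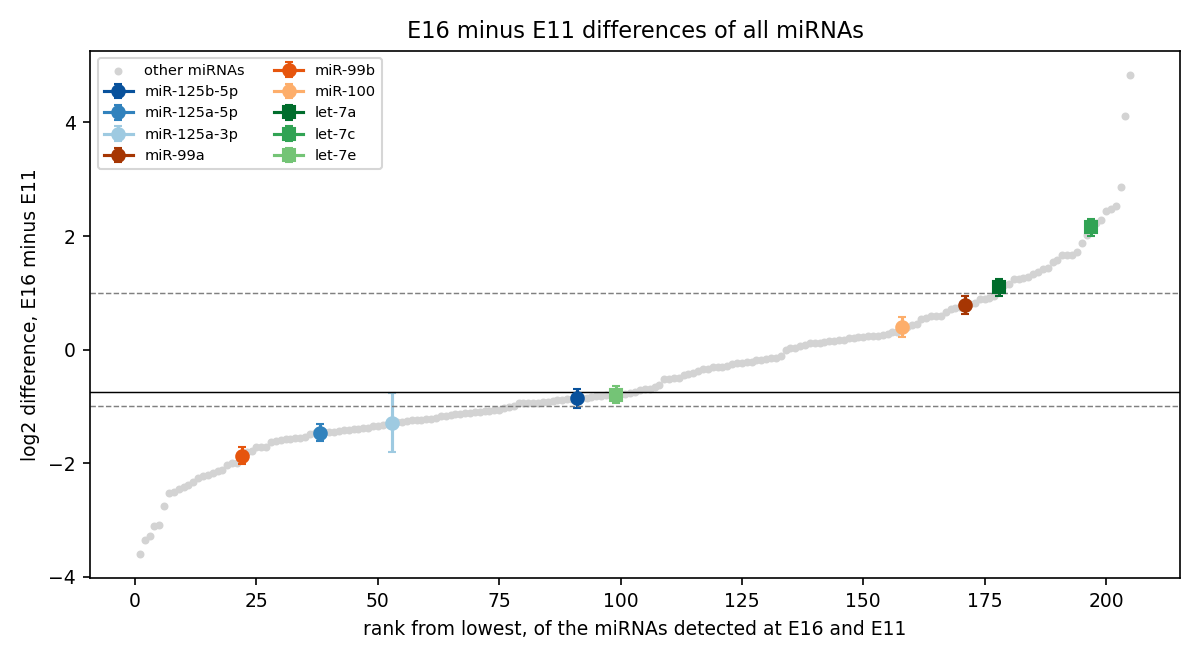
Each point is 1 of the 205 miRNAs detected at both E16 and E11, ordered by its scaled log2 difference (E16 minus E11), with family members as coloured circles and let-7 partners as coloured squares; bars are measurement errors, dashed lines mark 2-fold and the solid line the median of -0.74. The chromosome 17 members miR-99b and miR-125a-5p sit towards the low end, and miR-99a, miR-100, let-7a and let-7c in the upper part.

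miR-99b, the first miRNA of the chromosome 17 cluster, had deposited signals of 385 ± 28.4 at E11, 398 ± 29.6 at E12, 282 ± 21.0 at E14 and 286 ± 21.5 at E16. The first 2 stages were thus brighter than the last 2 even before scaling, on arrays that became brighter with age. Its scaled log2 levels were 0.62, 0.00, -0.91 and -1.24, and in this scaling each stage lay below the one before by more than 2 measurement errors. The first and last steps depended on the scaling. E12 against E11 was -0.80 to 0.05 over the scalings, and E16 against E14 was -0.47 to 0.02. E14 against E12 was -0.92 to -0.50. The difference between E16 and E11 was -1.90 to -0.43 over the 6 scalings, below 0 in each.

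miR-125a-5p, the lin-4 counterpart of the same cluster, had signals of 459 ± 34.0 at E11, 641 ± 47.7 at E12, 455 ± 33.9 at E14 and 451 ± 34.1 at E16. E12 stood out as the brightest, and the other 3 stages were within their errors of each other. On the scaled log2 scale its levels were 0.88, 0.69, -0.21 and -0.58. E12 lay below E11 by 0.19 ± 0.15, within 2 errors, and the later steps were larger. The difference between E16 and E11 was -1.55 to -0.02 over the scalings, so that on the deposited signals nothing of it remained beyond the error.

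From E12 on these cluster neighbours moved alike. From E12 to E14 miR-99b and miR-125a-5p had scaled differences of -0.91 ± 0.15 and -0.90 ± 0.15, and from E14 to E16 of -0.34 ± 0.15 and -0.37 ± 0.15. From E11 to E12 they were apart, at -0.62 ± 0.15 and -0.19 ± 0.15, with a gap of -0.44 ± 0.21. let-7e, between them on the chromosome, had signals of 488 ± 35.2, 881 ± 63.7, 716 ± 51.6 and 760.1 ± 55.0. Its scaled level was highest at E12 (1.15) and lowest at E16 (0.17), and its difference of E16 from E11, -0.80 ± 0.15, was the smallest of the 3. Over the scalings it ran from -0.83 to 0.64, and it was above 0 on the deposited signals. From E12 to E14 and from E14 to E16 the gaps of let-7e to both neighbours were within their error. The likeness was not confined to this locus. Over the same steps the gaps of miR-125b-5p, from other loci, to miR-125a-5p were 0.27 ± 0.23 and 0.18 ± 0.23. The second was 0.18 to 1.35 over the scalings.

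miR-125a-3p, cut from the other arm of the hairpin that gives miR-125a-5p, followed another course. Its signals were 7.68 ± 1.87 at E11, 7.43 ± 2.38 at E12, 37.2 ± 4.04 at E14 and 8.50 ± 2.24 at E16. Only E14 stood out, and E11, E12 and E16 were within their errors of each other as deposited. From E12 to E14 its scaled difference was 1.91 ± 0.49, a 3.77-fold difference, where miR-125a-5p was at -0.90 ± 0.15. The gap between the arms over that step was 2.81 ± 0.51, and 2.42 to 2.81 over the scalings. From E14 to E16 miR-125a-3p was 5.60-fold lower (-2.49 ± 0.41), which ranked 4 from the lowest of 231 miRNAs. It was 1 of 24 among the 197 miRNAs detected throughout that were at least 2-fold higher at E14 than at E12 and at least 2-fold lower at E16 than at E14, and no other member was among them. At E12 its signal equalled the lowest detected signal of that array, 7.43, so its levels outside E14 are near the limit of detection.

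miR-99a, first in the chromosome 16 cluster, had signals of 167 ± 13.6 at E11, 333 ± 26.6 at E12, 386 ± 30.1 at E14 and 779 ± 59.9 at E16. The lowest was at E11 and the highest at E16. On the scaled log2 scale it ran at -0.58, -0.26, -0.45 and 0.21, and E16 exceeded E12, the next highest stage, by 0.46 ± 0.16. E14 and E11 were within their error of each other, at 0.13 ± 0.16. The difference between E16 and E11 was 0.76 to 2.22 over the scalings, above 0 in each.

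miR-100, the chromosome 9 counterpart that differs from miR-99a in 1 base, had signals of 109 ± 9.83, 292 ± 23.4, 259 ± 21.0 and 389 ± 32.1. Its lowest signal was likewise at E11, but its scaled level was highest at E12, with -1.19, -0.44, -1.03 and -0.80 over the stages. From E11 to E12 the scaled difference was 0.75 ± 0.17, which ranked 27 from the highest of 201 miRNAs, and 0.57 to 1.42 over the scalings. E14 and E11 did not differ beyond their error (0.17 ± 0.17), and E16 lay above E14 by 0.23 ± 0.17, within 2 errors. The difference of miR-100 between E16 and E11 was 0.34 to 1.83 over the scalings. Between E16 and E11 the gap between miR-99a and miR-100 was 0.39 ± 0.24 (0.39 to 0.69 over the scalings). Whether miR-99a and miR-100, 1 base apart, hybridise to each other's probes was not tested. Against miR-99b, which shares their seed, the gaps were 2.65 ± 0.22 for miR-99a and 2.26 ± 0.23 for miR-100, and over the scalings 2.61 to 2.65 and 1.92 to 2.26.

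miR-125b-5p, the product of the last gene in both of these clusters, had signals of 5164 ± 435 at E11, 7973 ± 668 at E12, 6851 ± 563 at E14 and 7714 ± 634 at E16. E11 was the dimmest stage, and the later 3 differed from each other by little more than their errors. Its scaled log2 levels were 4.37, 4.33, 3.70 and 3.51. E11 and E12 were within their error of each other (0.04 ± 0.17), E14 lay below E12 by 0.63 ± 0.17, and E16 below E14 by 0.19 ± 0.17. The sign of its difference between E16 and E11 depended on the scaling, with a range of -0.89 to 0.58. In the authors' table it was 1.80-fold higher at E16 than at E14. That table holds quantile-normalized signals, which give each feature a value by its rank, and miR-125b-5p ranked 7 from the brightest of 718 features at E16 and 10 at E14, where neighbouring ranks lie far apart.

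**Figure D2:**
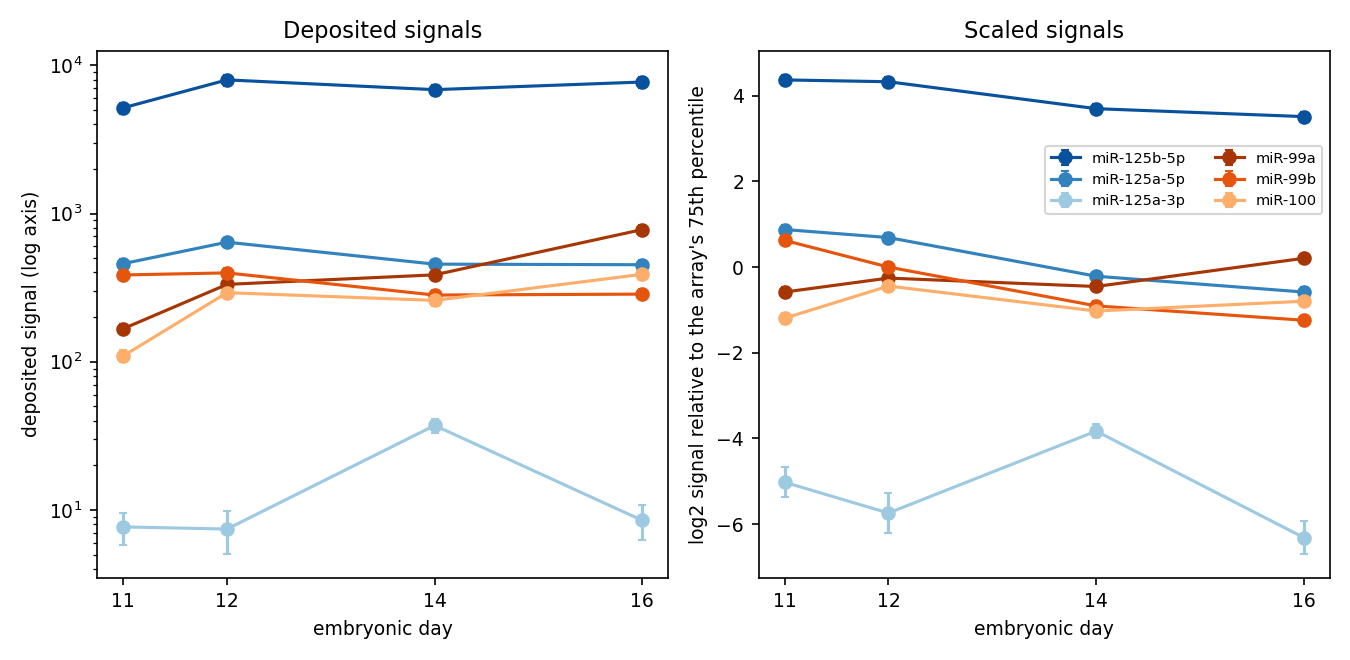
The 6 detected members are plotted by embryonic day as deposited signals on a log axis (left) and as log2 signals relative to each array's 75th percentile (right), 1 array per stage, with bars for the measurement error. miR-99b and miR-125a-5p decline on the right and miR-125a-3p peaks at E14 in both; heights of different miRNAs cannot be compared, because probes differ in affinity.

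The let-7 partners were read beside the family because a constant scaling of an array cancels when the changes of 2 miRNAs on the same arrays are subtracted. let-7c had signals of 192 ± 14.8 at E11, 759 ± 55.8 at E12, 1342 ± 98.7 at E14 and 2308 ± 170.2 at E16, and was brighter at each stage than at the one before. let-7a had 666 ± 48.8, 2165 ± 159, 2706 ± 199 and 3851 ± 284, with its largest scaled step, 1.03 ± 0.15, from E11 to E12. Of the 9 let-7 family miRNAs with miR-98, 8 were at least 2-fold higher at E16 than at E11 (13.7% of all 205) and 0 lower (37.6%), and the exception was let-7e.

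Between E16 and E11 the change of each family member minus that of its let-7 partner was below 0 in 6 of 6 pairs, by more than 2 measurement errors in each. Quantile normalization, the 1 alternative among the scalings that can move such a gap (the authors' table holds the same values), left all 6 below 0. Most miRNAs lay below let-7c and let-7a, however: 96.1% and 86.8% of the 204 other miRNAs had a lower difference than these, against 48.0% for let-7e. The gaps to let-7c and let-7a are therefore nothing particular to the family. Lying below let-7e was common too, at 98 of the 204 other miRNAs. On chromosome 17 the gap to let-7e was -1.07 ± 0.21 for miR-99b and -0.66 ± 0.21 for miR-125a-5p. On chromosome 16 the gap to let-7c was -1.37 ± 0.22 for miR-99a and -3.01 ± 0.23 for miR-125b-5p. On chromosome 9 the gap to let-7a was -0.70 ± 0.23 for miR-100 and -1.95 ± 0.23 for miR-125b-5p. Both gaps of miR-125b-5p use the same signal, and those to let-7c and let-7a include whatever comes from the other genes of these let-7 miRNAs. Only the chromosome 17 gaps compare miRNAs that have 1 gene each in the table. However, let-7e differs from let-7a by 1 base, and whether the let-7e probe also takes up let-7a was not tested.

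**Figure D3:**
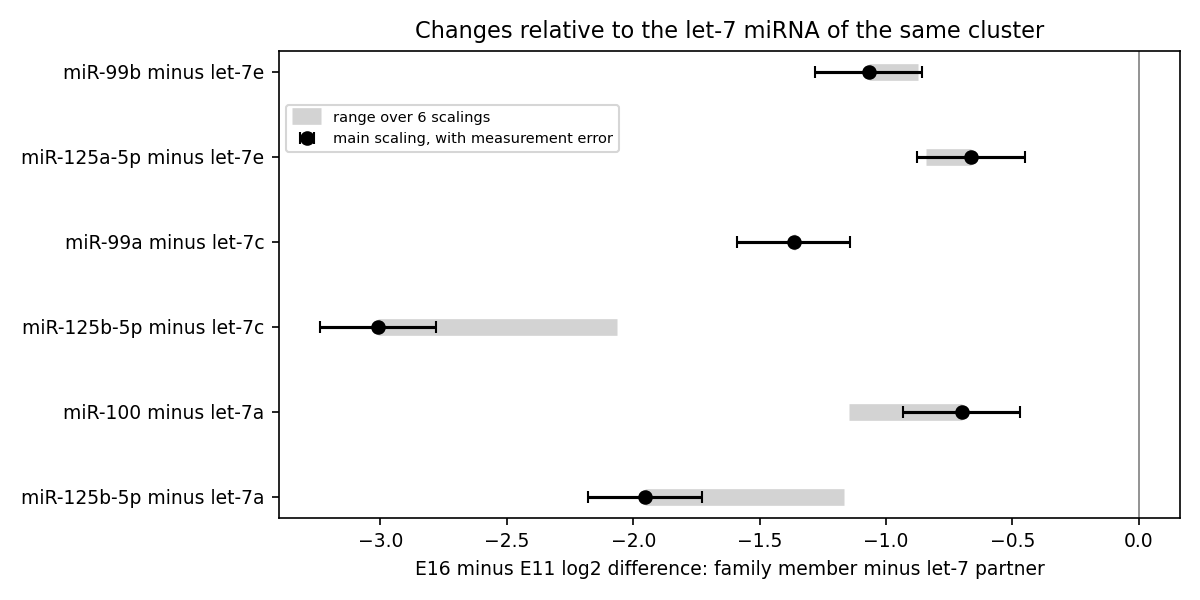
For each pair of neighbours in a cluster, the black point is the E16 minus E11 log2 difference of the family member minus that of its let-7 partner, with its measurement error, and the grey bar is the range over 6 scalings. All 6 pairs lie below 0, from -3.01 for miR-125b-5p and let-7c to -0.66 for miR-125a-5p and let-7e.

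From E11 to E12 all 6 gaps were below 0, and 4 exceeded 2 measurement errors: miR-99a to let-7c (-0.99 ± 0.23), miR-125b-5p to let-7c (-1.36 ± 0.23), miR-125b-5p to let-7a (-1.07 ± 0.23) and miR-99b to let-7e (-0.81 ± 0.21). Over that step 96.0% of 200 other miRNAs lay below let-7c, 91.5% below let-7a and 68.5% below let-7e. From E12 to E14 6 of 6 were again below 0 and 4 exceeded 2 errors, with 78.7%, 64.9% and 27.5% of 211 other miRNAs below let-7c, let-7a and let-7e. Under quantile normalization miR-99b to let-7e turned to 0.041 there, and 5 stayed below 0. From E14 to E16 4 of 6 were below 0, and 1, miR-125b-5p to let-7c at -0.61 ± 0.23, exceeded 2 errors. That gap came to -0.032 under quantile normalization, and 3 of the 6 gaps were below 0 in all scalings. Consecutive steps share an array, so these are not independent of each other.

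**Figure D4:**
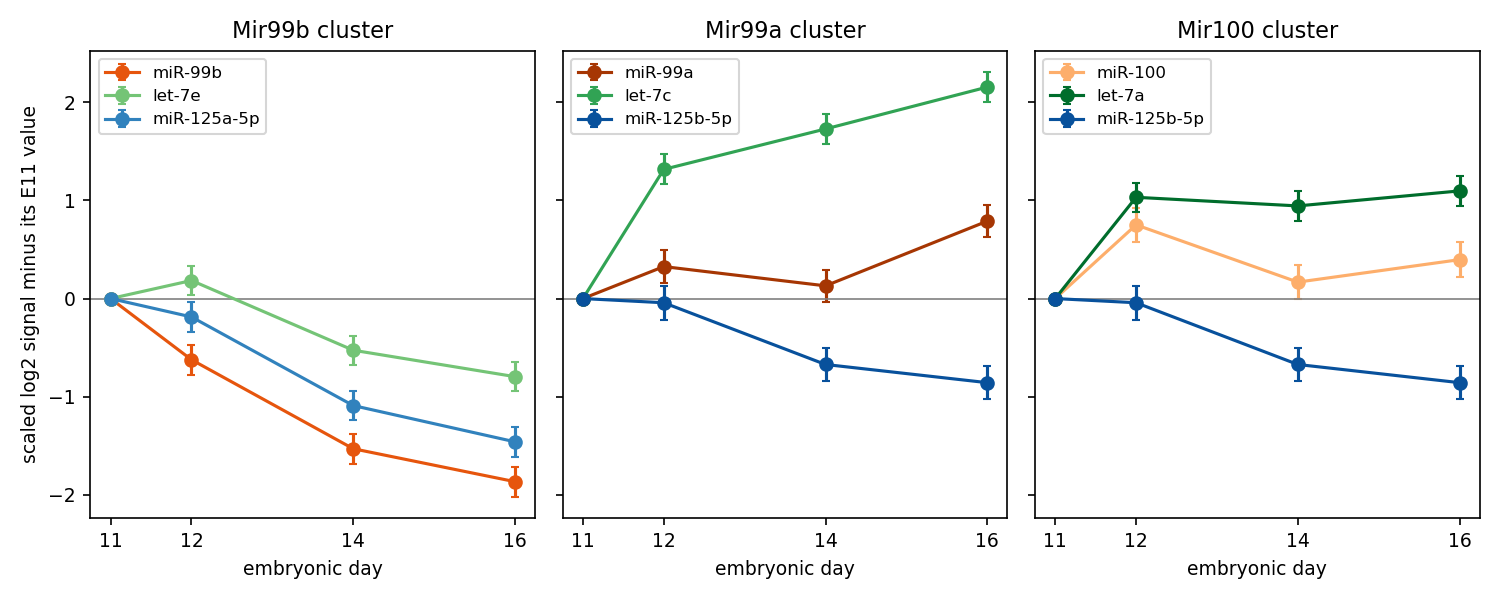
Each panel follows the 3 miRNAs of 1 genomic cluster by embryonic day as scaled log2 signal minus the E11 value, with bars for the combined measurement error. All 3 chromosome 17 miRNAs (Mir99b cluster) end below their E11 level on this scaling (let-7e ends above it on the deposited signals), while in the Mir99a and Mir100 clusters miR-125b-5p, the same measurement in both panels, ends below it and the other members above it.

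Over single steps few members passed 2-fold. From E11 to E12 0 of 6 did in either direction, beside 9.45% of 201 miRNAs higher and 8.46% lower at E12. From E12 to E14 1 of 6 was higher at E14 (miR-125a-3p; 12.7% of 212) and 0 lower (15.1%). From E14 to E16 1 of 6 was lower at E16 (miR-125a-3p again; 13.4% of 231) and 0 higher (7.36%). E16 was also set against E12, a comparison chosen after the data were seen, in which 2 of 6 members were at least 2-fold lower at E16 (19.1% of 215) and 0 higher (6.05%). Those were miR-125a-5p (-1.27 ± 0.15) and miR-99b (-1.24 ± 0.15), and both were below 0 on the deposited signals too, at -0.51 and -0.48. With median scaling or none, 0 members were 2-fold lower.

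Of miRNAs related by sequence, miR-351, which carries the miR-125 seed and is encoded on the X chromosome, was dim, with 5.88 ± 1.81 at E11, 18.3 ± 2.91 at E12, 19.3 ± 2.63 at E14 and 19.4 ± 2.84 at E16. Its E11 signal was the lowest and the later 3 were within their errors of each other, and the scaled difference of E16 from E11, 0.28 ± 0.49, was within its error. miR-10a and miR-10b, which are placed in a superfamily with miR-99 and miR-100 and lie in the Hox clusters, were at the undetected value of 0.1 for all 4 of their features at every stage.

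The profiles nearest to each member were sought among 191 non-member miRNAs detected at every stage, as the root mean square of the difference between centred scaled profiles over 4 stages. Nearest to miR-99b was miR-431 (0.05), then miR-410 and miR-1983. To miR-125a-5p it was miR-434-3p (0.05), then miR-214* and miR-337-5p, and to miR-125a-3p it was miR-370 (0.10), then miR-1224 and miR-466i. miR-99a lay nearest to miR-15a (0.10), miR-21 and miR-200b, and miR-100 to miR-322 (0.08), miR-411 and miR-26a. Nearest to miR-125b-5p were miR-300 (0.03), miR-652 and miR-361. Under quantile normalization 10 of these 18 left the nearest 3, among them all 3 of miR-125b-5p (ranks 54, 65 and 50) and of miR-125a-5p (5, 10 and 4). By the same measure the cluster partners were farther off: let-7e ranked 32 for miR-125a-5p and 62 for miR-99b, let-7c 91 for miR-99a and 175 for miR-125b-5p, and let-7a 32 for miR-100 and 140 for miR-125b-5p. let-7e was nearer to miR-125b-5p, which other chromosomes encode, at rank 10 (0.09) in the main scaling. With 4 points per profile and many miRNAs compared, these lists are a description only.

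A tooth germ is epithelium and mesenchyme, and in a whole-tissue sample fewer cells of a type and less RNA per cell cannot be told apart. Epithelial markers (7 miRNAs, 6 detected at E11 and 7 later) had summed scaled levels of 2.84 at E11, 3.09 at E12, 3.34 at E14 and 3.79 at E16. Mesenchymal markers (miR-199a-3p, miR-199a-5p, miR-214, miR-140, miR-143 and miR-145; 5 of 6 detected at each stage, miR-145 at none) had 5.22, 5.16, 4.05 and 3.83, lower at the stages where miR-99b, miR-125a-5p and miR-125b-5p were. They did not move together: at E16 against E11 miR-214 was at -2.51 ± 0.15, miR-199a-3p at -1.25 ± 0.15 and miR-199a-5p at -0.77 ± 0.16, but miR-140 at 0.73 ± 0.31 and miR-143 at 1.67 ± 0.39. As deposited, their summed signal was 9635 at E16 and 9338 at E11. Their part in these results was not tested. Each marker sum adds signals of different probes and is led by the brightest, and the probes detected can differ between stages. Of neural markers 1 to 3 of 5 were detected, with miR-124 and miR-9 at no stage and summed scaled levels of -4.09 to -2.01. The 4 muscle markers were detected at no stage, and of 4 leukocyte markers 0 to 2 were. Erythroid markers (1 or 2 of 2) had summed scaled levels of 0.09 to 0.86, and endothelial markers (2 of 2) of -0.31 to 0.23.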

How the data were processed

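Each array's deposited file gives the intensity of a feature as a total gene signal, per the file headers, together with its error and a detection flag; undetected features stand at 0.1. These signals were not scaled between arrays. No source used here names the scanner software or how background was treated. The authors' series table also holds intensity, and quantile normalization over all features gave back its 929 detected values to within 0.1%, so it was used as an alternative.

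Control features (22) were left out. From each log2 signal the 75th percentile of that array was subtracted, taken over the 197 miRNAs detected throughout, and errors were carried to the log2 scale and combined in quadrature. A difference is later minus earlier stage, and 2-fold is a rule of size. With 1 array per stage no test was made, and the number of arrays limits the precision. The calculation was tested on simulated data with known differences. There every feature was detected, and rises and falls were equally likely. A constant offset was taken out before scoring, so the simulation does not show that the scaling suits these arrays. Members, lists and the naming rule (all members, the let-7 partners, miR-351, miR-10 and the 3 nearest profiles) were chosen with earlier results of these data known. Sequences and positions came from RefSeq (GRCm38.p6) and were matched by name; all 6 detected members matched. Python 3.11.15 and pandas 2.3.3 were used.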

Additional observations from a re-analysis of the deposited data

How the results depend on the processing

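For E16 against E11, members at least 2-fold higher numbered 0 in the main scaling, 1 with median scaling, quantile normalization, the authors' table or a fold of 1.5, and 2 without scaling. Members at least 2-fold lower numbered 3 in the main scaling, 1 with median scaling and 0 without scaling. Over the steps, 1 member was higher at E12 than at E11, and 1 at E16 than at E14, without scaling or at a fold of 1.5. At a fold of 1.5, 2 members were lower at E12 than at E11 and 3 at E14 than at E12. For E16 against E12, 2 members were lower in the main scaling and 0 with median scaling or none, and 1 was higher without scaling. miR-125a-3p, called lower at E16 than at E11, turned to 0.14 without scaling. The cause was not tested.

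The cluster gaps between E16 and E11 moved beyond their error under quantile normalization and in the authors' table, which gave the same values: -2.06 for miR-125b-5p against let-7c, -1.17 for miR-125b-5p against let-7a, -1.15 for miR-100 against let-7a, 0.70 for miR-99a against miR-125b-5p, 0.017 for miR-100 against miR-125b-5p and -0.032 for miR-99b against miR-125a-5p. In the main scaling these were -3.01, -1.95, -0.70, 1.64, 1.25 and -0.41. All but 2 of these gaps hold miR-125b-5p, which quantile normalization places by its rank among the brightest features. The percentile is itself set in part by the family, since the scaled level of miR-99b at E12 is 0.00. Leaving the members and let-7 out of it moved the 36 differences of members and partners by at most 0.26. That is more than the measurement error of some of them. From E14 to E16 miR-100 turned from 0.23 to -0.03 and let-7a from 0.15 to -0.10. The printed ranges do not include this scaling. Asking for a signal of 5 times its error instead of the flag left 5 members at E11, E12 and E16, without miR-125a-3p, and 6 at E14. Constant scalings cannot move a gap or a likeness rank; under quantile normalization, which can, 8 of 18 ranks stayed among the nearest 3 and 10 did not. No paired analysis was possible because each stage has 1 array.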
